A study of Homo sapiens with 12 samples.

Results

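The respiratory chain subunits described here are the nuclear-encoded proteins of the 5 complexes that carry out oxidative phosphorylation in the mitochondrial inner membrane. Probes were chosen by symbol, after their RefSeq accession had been matched to a gene table, and the symbols were NDUFA, NDUFB, NDUFC, NDUFS or NDUFV with a digit, SDHA to SDHD, UQCR, CYC1, COX4 to COX8 and ATP5. This gave 113 of the 41000 gene probes of the array, for 83 genes: 36 genes of complex I, 4 of complex II, 9 of complex III, 16 of complex IV and 18 of complex V. No measured value entered the choice. The reference table held 88 protein-coding genes with such symbols, and 5 of them had no probe that could be matched.

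Expression was measured on 12 one-colour Agilent Whole Human Genome arrays, 6 labelled control and 6 labelled SRSF2 over-expression. All were of the H358/Tet-On/SRSF2 clone, a single clone derived from H358, a human lung adenocarcinoma line. In it SRSF2, an SR protein that acts in pre-mRNA splicing, is placed behind a Tet-responsive promoter. Over-expression was induced by 1 µg/mL doxycycline for 24 hours, and control cells, labelled with no treatment, were taken at the same time. The effects of doxycycline and of the transgene cannot be told apart in this design. The methods describe 3 labelings for each condition with 2 arrays of each, so that p-values measure the spread between arrays, part of which is technical. The comparison asks which transcripts differ in amount between the conditions.

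Complexes I to IV pass electrons from NADH and succinate to oxygen, and complexes I, III and IV pump protons while they do so. Complex V, the ATP synthase, lets the protons flow back and makes ATP. Complex II is the only one that is also an enzyme of the tricarboxylic acid (TCA) cycle, and all of its subunits are nuclear-encoded, whereas the other complexes also contain subunits made from mitochondrial DNA, which the symbol rule does not take in.

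Levels are log2 signals of a probe after subtraction of the 75th percentile over all gene probes on its array, and differences as arrays labelled SRSF2 over-expression minus control on that scale, with the standard error (SE) of the fit. A level can be compared between arrays but not between probes. A probe was called higher or lower at an adjusted p of at most 0.05 from limma, with Benjamini-Hochberg adjustment over all 24331 probes that passed the filter on dim signals. The number of arrays limits the precision of each value.

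The SRSF2 probe itself (A_23_P77776) went against the label. Its level ran from 3.73 to 4.02 (median 3.94) on the control arrays and from 2.28 to 2.51 (median 2.49) on those labelled SRSF2 over-expression. The difference was -1.46 (SE 0.060, limma adjusted p = 1.2e-09), and the conditions did not overlap. The probe was called lower in all 17 alternative settings. Which part of the transgene or of the endogenous transcript the probe reads was not analysed here, and the arrays are therefore referred to by their label. An exchange of the labels between the conditions was not tested, and it would turn every direction given here. All 6 epithelial markers (EPCAM, CDH1, KRT7, KRT8, KRT18, KRT19) were well above background on all 12 arrays. Their summed signal, as a multiple of the 75th percentile, was 891 to 1050 for control arrays and 472 to 910 for the rest. The epithelial probes did not move together, as 3 were called higher and 2 lower. No fibroblast marker with a probe, of 3, was above background on any array, nor were 2 of 3 endothelial markers or 1 of 4 leukocyte markers. PECAM1 and CD14 were above background on all 12 arrays, and 1 endothelial and 1 leukocyte probe were called lower. The part of these markers in the results was not tested.

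Between 54.2% and 68.0% of gene spots per array were well above background, and no spot was saturated. Control replicate 2, which had the lowest 75th percentile of signal (801, against 944 to 1112 on the other 11 arrays), stood apart. It was the stray low array of its group at 9 of the 103 member probes with a value on all control arrays (8.74%), and at 5.55% of all 24054 such probes. No other array was stray and low at more than 1 member probe. Where leaving out control replicate 2 changed the call of a member, the result without it is given, and most other members are given with all arrays only. NDUFA11 (-0.19, limma adjusted p = 0.028), NDUFA13 (-0.26, 0.015) and ATP5PB (0.18, 0.048), which were not called with all arrays, were called without it.

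Of the 113 member probes, 110 passed the filter and were tested, and all 110 were well above background on all 12 arrays. The remaining 3 were the probe of COX4I2, the probe of COX7A1 and 1 of the probes of ATP5MC3. At adjusted p of at most 0.05, 49 of the 110 probes were called (44.5%), against 57.9% of all tested probes. Of these, 23 were higher (20.9%, background 29.5%) and 26 lower (23.6%, background 28.4%). A single probe, of UQCR11, also passed a 2-fold change upward (background 3.65%), and none did so downward (background 3.37%), where the largest fall was -0.80. The median difference over the tested members was -0.03, compared with 0.00 over all tested probes, and the median size of the difference without its sign was 0.16 against 0.30. In 8 of the called members the difference exceeded 1.5-fold. Calls in both directions thus occurred within the chain, and their share lay below the share over all probes.

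**Figure D1:**
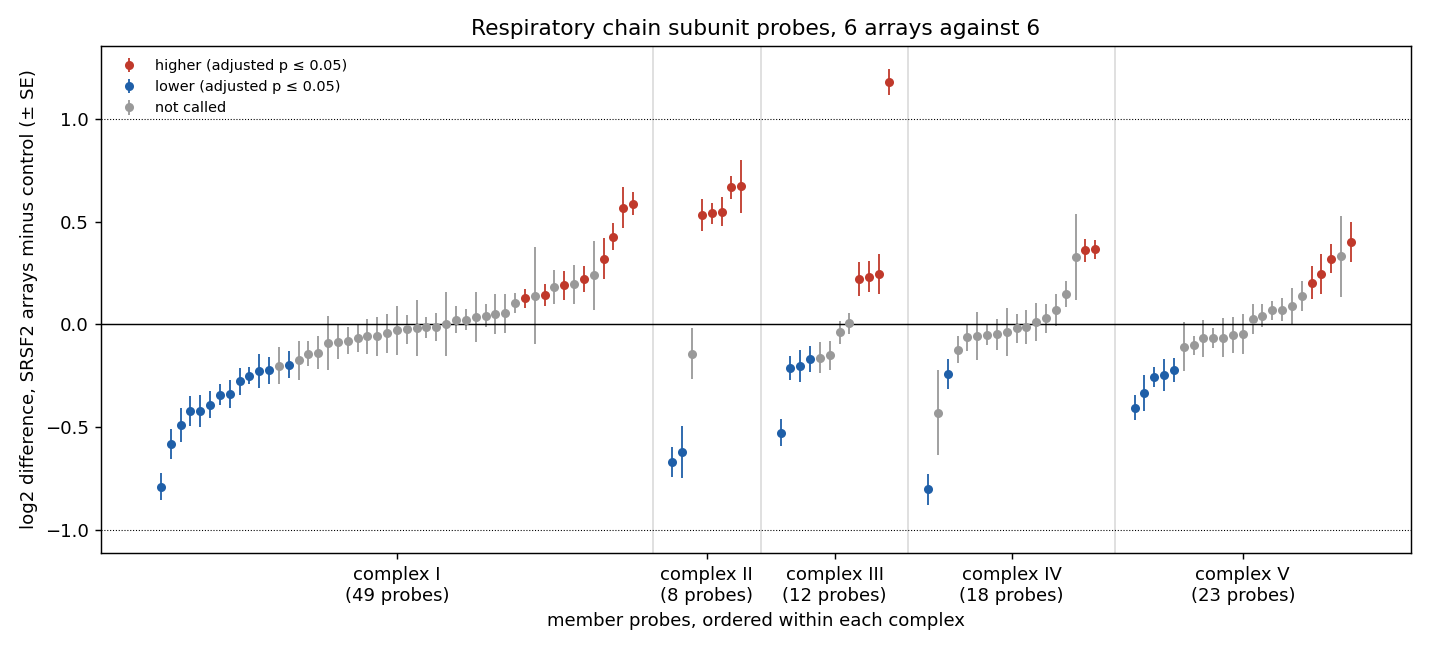
Log2 difference (arrays labelled SRSF2 over-expression minus control, ± SE) of each of the 110 tested member probes, ordered within complexes I to V; red and blue points passed adjusted p of at most 0.05 and dotted lines mark 2-fold. Complex II has 7 of 8 probes called, in both directions, whereas 14 of the 18 probes of complex IV were not called, and only 1 probe, of UQCR11, lies beyond a dotted line.

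By gene, 15 of the 81 genes tested had called probes that were higher only, 19 lower only and 3 both, and 44 had no called probe. The 6 arrays of each condition did not overlap at 29 member probes (26.4%), of which 13 were higher and 16 lower, against 40.2% of all tested probes. All 49 called members had the same direction on each of the 3 slides, which carry 2 arrays of each condition. For the 29 without overlap this follows from the separation of the arrays, and all 49 were called on these same arrays. Without control replicate 2, 18 probes were higher and 29 lower (42.7% called, against 58.3% of all tested probes). With the arrays of a slide averaged per condition, 13 were higher and 13 lower (23.6% called, against 38.9%).

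Complex II, succinate dehydrogenase, had the largest share of called probes among the 5 complexes (7 of 8). This count, like those of the other complexes below, is to be read against the 57.9% of all tested probes called. Of the 8 probes 4 were of SDHD alone, so that the share rests on few genes. The subunits of complex II moved in opposite directions. SDHA, the flavoprotein that oxidises succinate, was lower, and both SDHC and SDHD, the small subunits that anchor the enzyme in the membrane and form its ubiquinone site, were higher. The RefSeq sequences upstream of SDHA and SDHD are printed because these genes of one enzyme went opposite ways, that of UQCR11 because it held the largest rise among the members, and that of NDUFS8 because it held the largest fall in complex I. They are the 150 bases before the annotated start, 5′ to 3′ on the strand of the gene in GRCh38.p14, and capitals mark the letters CCGGAAG (core of sites bound by ETS factors such as GABP) or GCATGCGC (core of the NRF1 site), on either strand. The SDHA stretch is chr5:218170-218319 on the plus strand, SDHD chr11:112086723-112086872 on the plus strand, UQCR11 chr19:1605463-1605612 on the minus strand and NDUFS8 chr11:68030531-68030680 on the plus strand.
SDHA: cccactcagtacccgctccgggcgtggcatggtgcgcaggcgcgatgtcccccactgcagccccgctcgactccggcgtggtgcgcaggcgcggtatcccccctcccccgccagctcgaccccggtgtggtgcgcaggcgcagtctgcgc
SDHD: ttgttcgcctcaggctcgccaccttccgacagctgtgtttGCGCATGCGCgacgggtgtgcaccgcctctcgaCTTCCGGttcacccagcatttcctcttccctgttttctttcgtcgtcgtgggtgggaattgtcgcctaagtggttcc
UQCR11: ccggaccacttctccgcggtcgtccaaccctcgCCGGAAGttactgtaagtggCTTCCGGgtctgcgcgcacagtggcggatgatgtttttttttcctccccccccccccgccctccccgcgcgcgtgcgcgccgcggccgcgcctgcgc
NDUFS8: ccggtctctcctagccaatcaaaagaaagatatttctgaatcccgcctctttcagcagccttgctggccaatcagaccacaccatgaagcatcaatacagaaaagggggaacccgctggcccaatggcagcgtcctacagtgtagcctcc
The SDHD stretch held 1 match to the ETS letters, and its GCATGCGC match reads on both strands, as overlapping letters. UQCR11 held 2 matches to the ETS letters, and the stretches of SDHA and NDUFS8 held none of either. In the table's windows of 250 bases before and 50 after the start, of 68 members with a window, 21 held CCGGAAG or its reverse complement (30.9%), against 16.5% of 15843 protein-coding genes. GCATGCGC occurred in 14 (20.6% against 4.89%), and AAGATGGC, the core of the YY1 site, in 12 (17.6% against 4.66%). A match is a string of letters and not a measured binding site. Of the 14 members with GCATGCGC, 3 were higher, 4 lower and 7 not called. Of the 21 with CCGGAAG, 3 were higher, 4 lower, 1 called in both directions and 13 not called. The 12 with AAGATGGC comprised 1 higher, 4 lower and 7 not called. All 68 members with a window comprised 10 higher, 16 lower, 3 called in both directions and 39 not called. Whether the letters bear on the direction was not tested.

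The SDHA probe A_32_P67259 ran from 3.70 to 3.85 (median 3.76) on control arrays and from 2.88 to 3.29 (median 3.16) on arrays labelled SRSF2 over-expression. The difference was -0.67 (SE 0.072, limma adjusted p = 5.1e-06), or 1.59-fold lower, with no overlap. The other SDHA probe, A_23_P250035, ran from 2.96 to 3.39 (median 3.23) and from 2.23 to 2.94 (median 2.49), and differed by -0.62 (SE 0.12, limma adjusted p = 0.00093). All 6 arrays with the SRSF2 label were thus below all 6 controls at both probes. The SDHA differences shrank to -0.45 and -0.40 with scaling on spike-in controls and to -0.56 and -0.52 with another background correction (normexp), and passed the test in neither setting (adjusted p between 0.11 and 0.19).

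SDHD was read by 4 probes, and each was higher without overlap. At A_32_P60185 the controls ran from 1.23 to 1.39 (median 1.28, 5 arrays with a value) and the other arrays from 1.86 to 2.08 (median 1.94), a difference of 0.67 (SE 0.056, limma adjusted p = 1.0e-06) or 1.59-fold. The other SDHD probes differed by 0.53, 0.54 and 0.55. SDHC, at A_24_P233850, ran from 0.80 to 1.10 (median 0.94) on controls and from 1.32 to 2.03 (median 1.48) on the others, a difference of 0.67 (SE 0.13, limma adjusted p = 0.00061). The high end of SDHC came from both SRSF2-labelled arrays of slide 1, where the within-slide difference was 0.92, compared with 0.56 and 0.53 on the other slides. All 5 probes of SDHC and SDHD were called higher in all 17 alternative settings.

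SDHB, the iron-sulphur subunit between SDHA and the membrane anchors, was not called. Its probe ran from 2.73 to 3.51 (median 3.44) on controls and from 3.00 to 3.29 (median 3.24) on the others, a difference of -0.14 (SE 0.12, limma adjusted p = 0.35). The lowest control value was that of control replicate 2, and without this array SDHB differed by -0.26 (limma adjusted p = 0.0042) and was called lower. RefSeq lists 4 pseudogenes named after SDHA, 1 after SDHB, 5 after SDHC and 7 after SDHD. Whether a probe also binds transcripts of these copies was not analysed here.

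**Figure D2:**
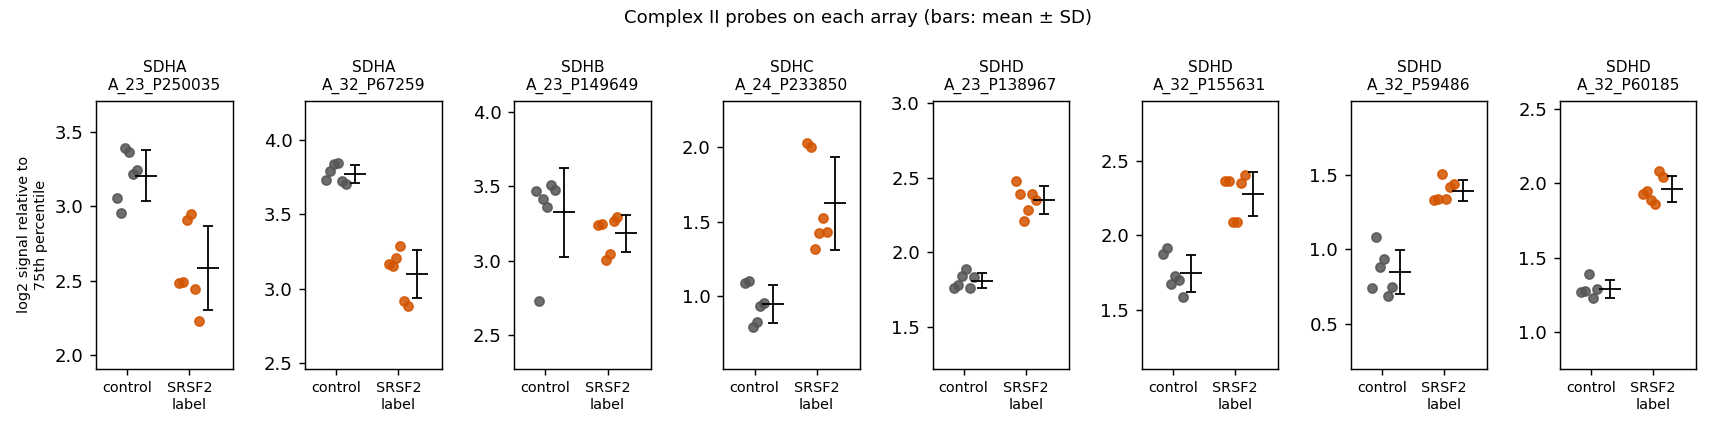
Level of the 8 complex II probes on each array (log2 signal minus the array's 75th percentile); points are arrays, the offset bar is the mean ± SD, each panel spans the same log2 range, and panels are not comparable in level. SDHA lies lower and SDHC and SDHD lie higher on every SRSF2-labelled array, and 1 control array of SDHB lies at 2.73, below all others.

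Complex I, the NADH dehydrogenase, is the largest complex and the entry point for electrons from NADH. Of its 49 tested probes, 13 were lower, 8 higher and 28 not called, with a median of -0.03. The falls included nuclear-encoded core subunits, those that carry the flavin and the iron-sulphur clusters or build the quinone-binding arm. This division into roles, like those of complex V, was made after the values were seen and has no test of its own. On the quinone side NDUFS7 and NDUFS8 were lower and NDUFS3 was not called, and on the NADH side NDUFV1 was lower while NDUFS1 and NDUFV2 were not called. None of these core subunits had a probe called higher. At NDUFS3 control replicate 2 lay at 2.26, against 3.42 to 3.95 on the other controls. NDUFS3 differed by 0.14 with that array and by -0.10 without it (limma adjusted p = 0.64 and 0.35). The 29 accessory genes comprised 5 lower, 6 higher, 2 called in both directions and 16 not called.

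NDUFS8, a ferredoxin-like subunit whose iron-sulphur clusters lie on the way to the quinone site, had the largest fall in the complex. Its probe (A_23_P86774) ran from 4.25 to 4.52 (median 4.42) on controls and from 3.44 to 3.73 (median 3.66) on the others. The difference was -0.79 (SE 0.066, limma adjusted p = 5.0e-07), or 1.73-fold lower, without overlap and between -0.88 and -0.67 on the 3 slides. NDUFS7, its partner that holds the last cluster before quinone, was lower at both probes: A_23_P165090 ran from 2.09 to 2.39 (median 2.33) and from 1.59 to 1.98 (median 1.83), with a difference of -0.49 (SE 0.083, limma adjusted p = 0.00024), and A_23_P165086 differed by -0.42. Both NDUFS7 probes separated the conditions.

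NDUFA7, an accessory subunit of the hydrophilic arm, ran from 2.91 to 3.23 (median 3.13) on controls and from 2.33 to 2.66 (median 2.53) on the others, a difference of -0.58 (SE 0.072, limma adjusted p = 1.7e-05). NDUFA3 (-0.42) and NDUFV1, which binds NADH (-0.34), also fell without overlap. NDUFA5 was lower at both of its probes (-0.28 and -0.22), although the first turned to 0.02 under spike-in scaling. NDUFS8 kept its call in 16 of 17 alternative settings, with an adjusted p of 0.053 under spike-in scaling, whereas NDUFA7 and both NDUFS7 probes lost theirs under spike-in scaling and normexp.

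The largest rise in complex I was that of NDUFB5, an accessory subunit of the membrane arm. Its probe (A_24_P285831) ran from -0.52 to -0.33 (median -0.42) on controls and from 0.06 to 0.26 (median 0.19) on the others, a difference of 0.59 (SE 0.056, limma adjusted p = 1.7e-06) or 1.5-fold, and it was called higher in all 17 alternatives. The other rises without overlap in complex I were a probe each of NDUFV3 and NDUFA10, described with their companion probes further on. Smaller rises were called for NDUFA8 (0.22), NDUFB11 (0.19) and NDUFA12 (0.14), all with overlap between the conditions. NDUFA12 was not called without control replicate 2 (limma adjusted p = 0.055).

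In complex III, which passes electrons from ubiquinol to cytochrome c, 4 of 12 probes were higher, 4 lower and 4 not called. UQCRC2, a core protein of the matrix side, ran from 2.04 to 2.20 (median 2.14) on controls and from 1.44 to 1.79 (median 1.61) on the others. The difference was -0.53 (SE 0.065, limma adjusted p = 1.6e-05), which shrank to -0.31 and was not called under spike-in scaling or normexp, whereas its partner UQCRC1 differed by -0.15 and was not called (limma adjusted p = 0.087), although it was called lower with the replicate number (0.032) or the slide (0.0084) as a block. The catalytic subunits differed in direction: CYC1, cytochrome c1, fell by 0.21 (SE 0.058), and UQCRFS1, the Rieske iron-sulphur protein, was higher at both probes (0.23 and 0.22). UQCRB (0.24), a small subunit near the quinone site, was also higher. CYC1, UQCRFS1 and UQCRB overlapped between the conditions, and spike-in scaling turned the sign of CYC1 to 0.01. None of their probes was called under spike-in scaling, under normexp or with the arrays of a slide averaged per condition (limma adjusted p between 0.13 and 0.99). Without control replicate 2, UQCRB (limma adjusted p = 0.057) and 1 UQCRFS1 probe (0.059) were not called.

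UQCR11, a small subunit of complex III, held the only 2-fold member, and its 2 probes went opposite ways. At A_24_P48617 the controls ran from -0.91 to -0.74 (median -0.83) and the arrays labelled SRSF2 over-expression from 0.16 to 0.50 (median 0.39). This was a difference of 1.18 (SE 0.064, limma adjusted p = 1.2e-08), or 2.26-fold, with no overlap and with slide values between 1.10 and 1.24. It lay between 0.82 and 1.39 over the 17 alternatives and was called in each, with the lowest value under normexp, where it fell below 2-fold. At A_23_P56314 the controls ran from 5.19 to 5.43 (median 5.34) and the others from 5.07 to 5.33 (median 5.13, 5 arrays with a value), a difference of -0.17 (SE 0.065, limma adjusted p = 0.042) that was called in 9 of the 17 alternatives. The upper probe thus separated the conditions and the lower one did not.

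NDUFV3 and NDUFA10 were the other genes with called probes in both directions. NDUFV3 is an accessory subunit next to the NADH site that is known in a short and a long form made by alternative splicing, and NDUFA10 is a nucleoside-kinase-like accessory subunit. For NDUFV3, A_24_P241995 ran from -0.87 to -0.23 (median -0.40) on controls and from -0.02 to 0.21 (median 0.15) on the others, a rise of 0.57 (SE 0.098, limma adjusted p = 0.00028). A_24_P416951 ran from 3.39 to 3.54 (median 3.49) and from 3.06 to 3.23 (median 3.14, 5 arrays with a value), a difference of -0.34 (SE 0.051, limma adjusted p = 0.00012). The third NDUFV3 probe differed by -0.17 (limma adjusted p = 0.14), and by -0.27 without control replicate 2, where it was called (adjusted p = 0.0011). At both called probes of NDUFV3 all arrays of one condition lay beyond all arrays of the other.

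NDUFA10 probe A_24_P316489 ran from -0.70 to -0.53 (median -0.63) on controls and from -0.37 to -0.01 (median -0.23) on the others, a rise of 0.43 (SE 0.064, limma adjusted p = 8.9e-05). Its companion A_23_P120182 ran from 2.15 to 2.19 (median 2.17) and from 1.80 to 1.98 (median 1.94), a difference of -0.25 (SE 0.042, limma adjusted p = 0.00025). Neither NDUFA10 probe overlapped between the conditions. Under spike-in scaling and under normexp the lower probe of UQCR11, of NDUFV3 and of NDUFA10 was not called (limma adjusted p between 0.55 and 0.98), and neither was the upper NDUFA10 probe under normexp (0.33).

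Whether the probes of a gene differed in response was tested by an exact permutation test, two-sided, of the gap between them on each array, over 33 probe pairs of the 26 genes with several tested probes. The difference of differences was 1.32 for UQCR11, 0.94 for the called NDUFV3 probes, 0.68 for NDUFA10 and 1.13 for COX6B2, each with exact p = 0.00216, the smallest that 6 arrays against 6 allow, and 0.0143 after Benjamini-Hochberg adjustment over the 33 pairs. The test takes each array as a unit of its own, and with the 3 labelings of a condition as units the smallest p would be 0.1. These 4, with a second pair of NDUFV3 (0.74, exact p = 0.00216, adjusted 0.0143), were the only pairs past 0.05 after adjustment. The gaps were tested on the reported values only. Under normexp the COX6B2 probes differed by -0.64 and -0.14, in the same direction. Of the 26 genes, 15 had the same call at all probes, 8 had called and uncalled probes and 3 had calls in both directions. Over all 3741 named genes with several tested probes, 366 (9.78%) had calls in both directions, compared with 11.5% of the members. The positions of these probes within the transcripts were not analysed here.

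**Figure D3:**
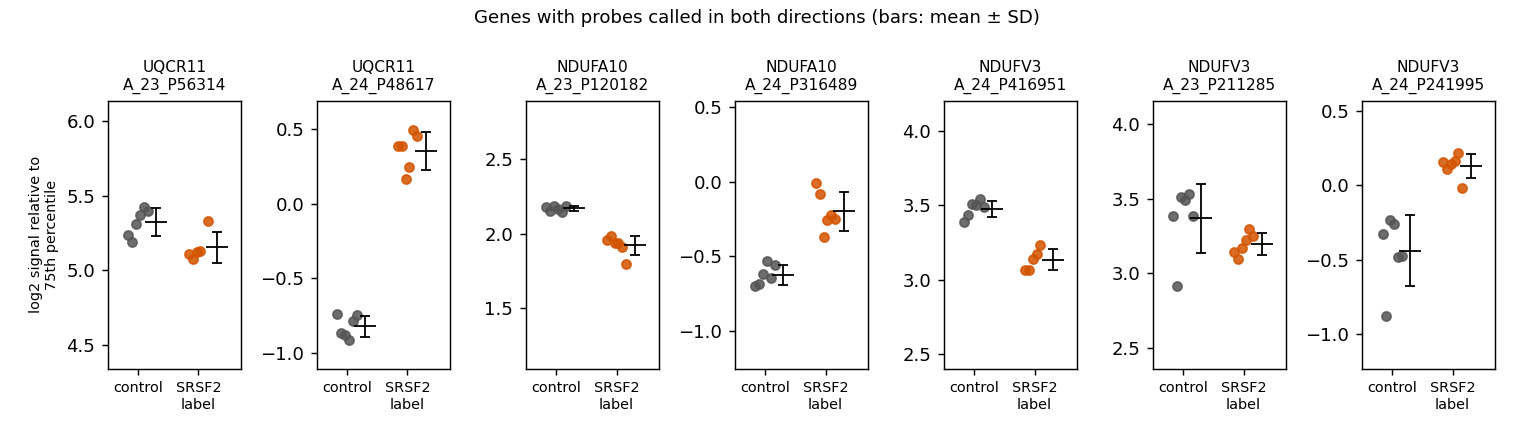
Level on each array of the probes of UQCR11, NDUFA10 and NDUFV3 (log2 signal minus the array's 75th percentile); points are arrays, the offset bar is the mean ± SD, each panel spans the same log2 range, and panels are not comparable in level. The right-hand probe of each gene lies higher on all arrays labelled SRSF2 over-expression (differences of 1.18, 0.43 and 0.57), while the left-hand probe lies lower (-0.17, -0.25 and -0.34).

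Among the genes with called and uncalled probes, COX6B2 had the largest gap. For NDUFC2 the probes differed by 0.32 (called) and 0.20, for NDUFA9 by 0.13 (called) and 0.10, for ATP5MG by 0.20 (called) and 0.09, for NDUFA1 by -0.19 (called) and -0.14, for UQCR10 by -0.20 (called) and -0.16, and for ATP5ME by -0.25 (called) and -0.10. In all of these the direction was shared. NDUFB7 had probes at -0.23 (called) and 0.00, and the latter became -0.16 (limma adjusted p = 0.022) without control replicate 2, whose value of 2.77 lay below the 3.61 to 3.86 of the other controls. The calls of NDUFA9, NDUFA1, UQCR10 and ATP5MG were lost without that array (adjusted p from 0.051 to 0.080). With the replicate number as a block, the uncalled probes of NDUFA1 (limma adjusted p = 0.017) and UQCR10 (0.022) were called lower, and the called NDUFA9 probe was not called (0.051). Spike-in scaling turned the called NDUFA1 and UQCR10 probes to 0.02 and 0.01, and normexp turned that of NDUFC2 to -0.06 and that of NDUFA1 to 0.03.

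Complex IV, cytochrome c oxidase, reduces oxygen to water, and several of its nuclear-encoded subunits exist as isoforms of different tissues. Of its 18 tested probes, 14 were not called, 2 were higher and 2 lower, the smallest share of calls among the complexes (22.2%). COX7A2L, which joins complexes III and IV in supercomplexes, was higher at both probes. A_23_P210348 ran from 4.04 to 4.15 (median 4.09) on controls and from 4.38 to 4.58 (median 4.44) on the others, a difference of 0.37 (SE 0.047, limma adjusted p = 2.4e-05), and A_24_P88800 differed by 0.36 (SE 0.057, limma adjusted p = 0.00014). Both COX7A2L probes separated the conditions, and both lost the call under normexp alone of the 17 alternatives.

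COX6B2, the testis isoform of a subunit facing the intermembrane space, was lower at A_24_P267523, where the controls ran from -1.22 to -0.81 (median -1.07) and the others from -1.98 to -1.71 (median -1.81). The difference was -0.80 (SE 0.075, limma adjusted p = 1.5e-06), or 1.74-fold lower, with no overlap. Its other probe differed by 0.33 (SE 0.21, limma adjusted p = 0.20), with controls from -3.69 to -2.50. Under normexp the 2 probes differed by -0.64 (limma adjusted p = 0.067) and -0.14 (0.83), and neither was called. The ubiquitous isoform, COX6B1, differed by -0.04 (SE 0.12) and was not called.

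The remaining isoform pairs were mostly without a call. COX4I1 differed by -0.12 and -0.05 at its probes, and COX4I2, the lung isoform, was above background on 3 of 12 arrays and was not tested. COX6A1 differed by -0.02, while COX6A2, the heart and skeletal muscle isoform, differed by -0.43 with a large error (SE 0.21, limma adjusted p = 0.099) and ran from 5.63 to 6.92 on the SRSF2-labelled arrays against 6.57 to 6.80 on 5 controls. COX7A2 differed by -0.01, and COX7A1, the muscle isoform, was not above background on any array. COX7B differed by 0.07 and COX7B2 by 0.15 (limma adjusted p = 0.062, or 0.039 with the replicate number as a block). COX8A was lower, from 5.98 to 6.39 (median 6.20) on controls to 5.86 to 6.12 (median 5.90) on the others, a difference of -0.24 (SE 0.073, limma adjusted p = 0.013), and no probe of COX8C could be matched. Of these isoform genes COX6B2 and COX8A were called, and with slide as a block a probe each of COX4I1 (lower, limma adjusted p = 0.016) and COX7B2 (higher, 0.010) was called too. COX8A lost its call under spike-in scaling (-0.03) and normexp (-0.04).

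In complex V, 5 of 23 probes were lower, 4 higher and 14 not called. Within the catalytic head and central stalk the subunits differed in direction. ATP5F1B, the catalytic beta subunit, ran from 4.44 to 5.09 (median 4.99) on controls and from 5.25 to 5.42 (median 5.29) on the others, a rise of 0.40 (SE 0.097, limma adjusted p = 0.0033), or 0.31 without the low control replicate 2. ATP5F1C, the gamma subunit that rotates inside the head, ran from 1.34 to 1.59 (median 1.41) and from 1.60 to 1.96 (median 1.71), a rise of 0.32 (SE 0.071, limma adjusted p = 0.0018). Both separated the conditions, although ATP5F1C did so by a narrow margin. ATP5F1B lost its call under normexp (limma adjusted p = 0.15). ATP5F1C lost its call under normexp (0.097), under spike-in scaling (0.077) and with the arrays of a slide averaged per condition (0.051).

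ATP5F1D, the delta subunit of the central stalk, was lower at both probes. A_23_P5089 ran from 2.14 to 2.32 (median 2.28) on controls and from 1.69 to 1.96 (median 1.89) on the others, a difference of -0.40 (SE 0.062, limma adjusted p = 9.9e-05), and A_24_P168456 differed by -0.33 (SE 0.089). ATP5F1A, the alpha subunit, differed by 0.04 (SE 0.057) and ATP5F1E by -0.06 and 0.02, and neither was called. ATP5PO, which ties the peripheral stalk to the head, ran from 6.13 to 6.25 (median 6.17) and from 5.81 to 6.03 (median 5.93), a difference of -0.26 (SE 0.050, limma adjusted p = 0.00068), and the other 3 peripheral stalk genes were not called. Neither ATP5F1D probe was called under spike-in scaling or normexp, nor was ATP5PO (-0.04 and -0.06).

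The membrane part held 2 genes lower, 2 higher and 4 not called. ATP5MK was higher by 0.25 (SE 0.096, limma adjusted p = 0.042) with overlap, and lost the call without control replicate 2 (adjusted p = 0.087). The c subunit, which forms the rotating ring, is encoded by 3 genes with the same mature protein. ATP5MC2 differed by -0.22 (SE 0.060, limma adjusted p = 0.0063), ATP5MC1 by -0.07 and ATP5MC3 by -0.05 at its tested probe, and only the first was called, though not under spike-in scaling (-0.01) or normexp (-0.03). ATP5IF1, the inhibitor of the enzyme, differed by -0.11 (SE 0.12) and was not called.

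**Figure D4:**
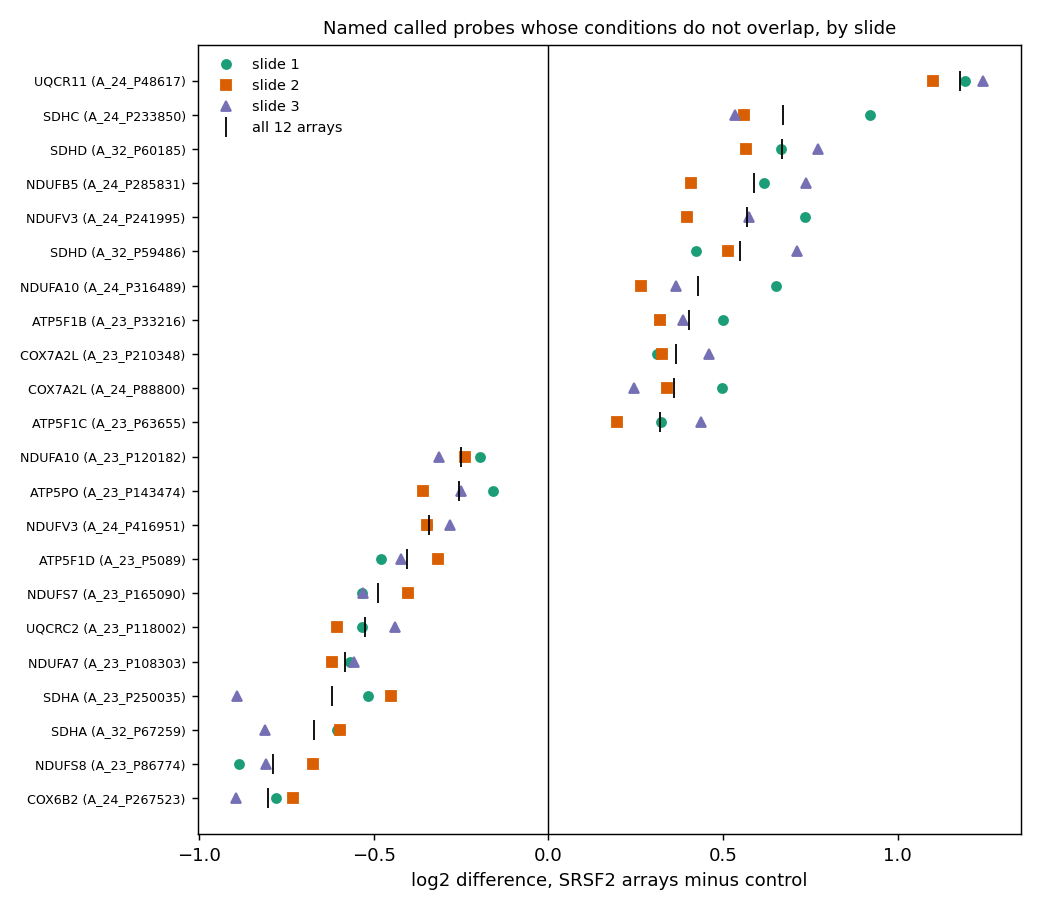
Log2 difference (arrays labelled SRSF2 over-expression minus control) on each of the 3 slides (2 arrays against 2, coloured symbols) and over all 12 arrays (bar) for 22 of the 29 called member probes whose conditions do not overlap, those taken by the rule for named probes. The 11 rises and 11 falls shown were taken for their lack of overlap, from which the same direction on the 3 slides follows. UQCR11 lies apart at 1.10 to 1.24.

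Genes that act on the chain without being counted among its subunits were described by lists, whose calls also ran in both directions and are to be read against the 57.9% of all tested probes called. Of 16 tested probes of complex I assembly factors, 5 were higher and 8 lower, and of 13 probes for assembly of complexes II and III, 2 were higher and 9 lower (median -0.28). ACAD9, an acyl-CoA dehydrogenase needed to assemble complex I, was lower by 1.04 (SE 0.066) and 1.00 (SE 0.079) at its probes on the log2 scale, that is, 2.06-fold and 2-fold. At A_23_P132405 it ran from 3.36 to 3.57 (median 3.53) on controls and from 2.28 to 2.58 (median 2.47) on the others. TIMMDC1 was higher by 0.52. FOXRED1 was higher by 0.55, but control replicate 2 lay at -2.73 there, below the -1.66 to -1.52 of the other controls, and the difference was 0.36 (limma adjusted p = 0.00047) without it and 0.21 (0.58) under normexp.

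UQCC1, required for the synthesis of cytochrome b of complex III, ran from 0.78 to 0.95 (median 0.91) on controls and from -0.51 to -0.26 (median -0.43) on the others, a difference of -1.29 (SE 0.055, limma adjusted p = 1.5e-09) or 2.45-fold lower. The other UQCC1 probe differed by -0.67, with overlap. Control replicate 2 lay at -0.89 there, against -0.08 to -0.01 on the other controls, and without it the difference was -0.81 (limma adjusted p = 5.0e-08). LYRM7, which inserts the Rieske protein, was lower at 3 probes, by -0.83, -0.79 and -0.28. The assembly factors of complex II went different ways. SDHAF2, which helps attach the flavin to SDHA, was higher by 0.52 and SDHAF1, which serves SDHB, by 0.40, whereas SDHAF4 was lower (-0.37, limma adjusted p = 0.0036) and SDHAF3 was not called (0.09).

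Of 33 probes for complex IV assembly, 13 were higher and 6 lower. COX19, a copper-handling factor, was higher at 2 probes by 1.23 (2.35-fold) and 1.11 (2.16-fold); the former ran from -0.66 to -0.45 (median -0.58) on controls and from 0.52 to 0.84 (median 0.64) on the others. COX20 was lower at both probes (-0.77 and -0.41). COX11 was lower at 1 of 5 probes (-0.52), and the other 4 differed by between -0.00 and 0.07 and were not called. In the list for complex V assembly, 5 of 8 probes were higher and 3 lower, led by TMEM70 (0.64) upward and by DMAC2L downward (-0.54 and -0.50). The list also held DMAC2, higher at both probes (0.63 and 0.30), which is an assembly factor of complex I. Its probes are thus counted here and not among the complex I assembly factors above.

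Among 18 probes of regulators of mitochondrial biogenesis, 11 were higher and 4 lower, with a median of 0.45. GABPA, the DNA-binding subunit of the ETS factor GABP, ran from -3.21 to -2.93 (median -3.08) on controls and from -2.01 to -1.47 (median -1.52) on the others, a rise of 1.47 (SE 0.091, limma adjusted p = 3.7e-08) or 2.77-fold. TWNK, the mitochondrial DNA helicase, rose by 1.04 and 0.89 at its probes. PPARGC1B, a coactivator of mitochondrial genes, ran from -2.28 to -1.91 (median -2.15) and from -3.93 to -3.07 (median -3.51), a difference of -1.37 (SE 0.14, limma adjusted p = 3.0e-06) or 2.58-fold lower, and POLRMT, the mitochondrial RNA polymerase, differed by -0.62 and -0.52. Of the 31 called probes that the rule for naming took from these lists, 18 lost the call under normexp, GABPA (0.47), PPARGC1B (-0.90) and COQ10B (0.18) among them, and 9 under spike-in scaling. The called share of all tested probes fell from 57.9% to 11.7% under normexp and to 26.8% under spike-in scaling. Whether the rise of GABPA bears on members with the ETS letters in their windows was not tested.

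Of 21 probes for electron carriers and coenzyme Q synthesis, 9 were higher and 4 lower, with COQ10B (0.94) and PDSS2 (0.53) the largest rises and COQ8A (-0.68) and COQ9 (-0.57) the largest falls. The TCA cycle had 7 of 24 probes higher and 10 lower. IDH3A was higher at 1 of its 2 probes (0.80, the other at -0.11 and not called), and IDH3G, a subunit of the same isocitrate dehydrogenase, was lower (-0.63). DLST was lower at 1 of 2 probes (-0.65, the other at 0.22 and not called), and SUCLA2, which acts after it on the way to succinate, was higher at both (0.74 and 0.21, each with overlap). Without control replicate 2, the other DLST probe differed by 0.35 and was called higher (limma adjusted p = 0.0021). A list of subunits that the symbol rule left out, which also held the mobile carrier CYCS, had 3 of 8 probes called. Of these 3 calls 2 were of CYCS, whose 3 probes are also counted among the electron carriers. COXFA4, formerly NDUFA4 and a subunit of complex IV, differed by 0.04 and 0.07 and NDUFAB1, the acyl carrier protein in complex I, by -0.11, none called. COXFA4L3, a paralogue of COXFA4, was lower by 0.81 (SE 0.070, limma adjusted p = 6.7e-07). CYCS, cytochrome c itself, was higher at 2 of 3 probes (0.39 and 0.18), of which the first turned to -0.09 under normexp.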

How the data were processed

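Cyanine3-labelled cRNA of 6 control arrays and 6 arrays labelled SRSF2 over-expression was compared. The authors deposited the scanner output of Feature Extraction, in which the intensity of each spot is background-subtracted, together with a deposited table whose log2 values equal the log2 intensity minus the 75th percentile of each array and minus the median of each probe. Per the paper's methods, genes missing in over 25% of samples were excluded and conditions were tested by t-test with false discovery rate control; the normalization of these arrays is not given in the sources used here.

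From the intensities, spots of a probe were averaged as log2 values from which the 75th percentile of the gene probes was taken away. Outlier spots were set missing. Probes were kept that were missing on no more than 25% of arrays and flagged well above background on 5 or 6 arrays of either condition. limma 3.58.1 (lmFit, eBayes) in R 4.3.3 was fitted to 24331 probes without covariates. Exact permutation tests were two-sided (Python 3.11.15). RefSeq accessions named 23958 of 25868 probes through the GRCh38.p14 table; the arrays' annotation is of hg18, so no probe positions are given. Other probes have no symbol here.

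On values simulated from the means and spreads of 23740 probes, limma recovered 68 of 100 changes of 0.5 and 90 of 100 changes of 1 (log2), with 11 other calls. The simulated arrays were independent and few probes were changed, whereas 57.9% of the tested probes were called in the data and arrays of a slide deviated together. The recovery and the number of other calls therefore need not hold for the data, and changes below 0.5 were not simulated. Arrays with the same replicate number deviated together (r from 0.28 to 0.64, 6 pairs), but no more closely than other arrays of a slide (0.33 to 0.65). For arrays of separate slides r ran from -0.48 to -0.05, and the centring on condition means itself draws these values below 0. The shared unit is the slide, which was read from the array identifiers and has no term in the reported fit.

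Named were the SRSF2 probe, members past 2-fold, the 3 largest rises and 3 largest falls called per complex, genes whose probes differed in call, isoform pairs, and the 2 largest called rises and falls of each list; further members are named with values only. Roles within complexes I and V were chosen after values were seen. Members, lists and alternatives were chosen with earlier results of these data known. Alternatives were median, spike-in and quantile scaling, normexp (offset 50, on median intensities), the authors' table, no filter and a stricter filter on dim probes, use of outlier spots, the methods' t-test, a block for slide or for replicate number, slide means with and without slide as a block, and each slide left out; leaving out control replicate 2 was chosen after seeing the data. Some members and markers are counted but not reported here by name.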

Additional observations from a re-analysis of the deposited data

Results flagged for a closer look

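Among the 52 named member probes with all 12 values, 104 groups of 6 arrays were examined for a single array far from the others (its gap to the nearest array, over the range of the group, past Dixon's critical value), of which chance flags about 1 in 20, and 4 had one. In 3 of them the array was control replicate 2. ATP5F1B lay at 4.44 there, against 4.94 to 5.09 on the other controls, and its difference was 0.31 without that array and 0.40 with it. NDUFB7 (A_24_P14434) lay at 2.77 against 3.61 to 3.86, and differed by -0.16 without it. NDUFV3 (A_23_P211285) lay at 2.92 against 3.38 to 3.53, and differed by -0.27 without it and by -0.17 with it. For NDUFC2 (A_23_P2152) it was control replicate 6, at 4.78 against 5.20 to 5.30, and the difference was 0.12 without it and 0.20 with it.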

How the results depend on the processing

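With 23 members higher and 26 lower as reported, spike-in scaling gave 12 and 1, normexp background correction 8 and 1, and slide means 13 and 13. The called share of members was 11.8%, 8.18% and 23.6% in these settings, against 26.8%, 11.7% and 38.9% of all tested probes. Normexp also left 0 members past 2-fold upward (the highest, UQCR11, at 0.82), and there limma called 9 of 110 members and 18 had an unadjusted p under 0.05. Downward, limma called 0 members past 2-fold in every setting, as did the methods' t-test. The median of the members, -0.03 as reported, was 0.19 under spike-in scaling, where the median over all probes moved to 0.22, 0.13 under normexp, where that median was -0.11, and 0.0196 under quantile normalization. Of the 26 falls, COX6B2 alone was still called under spike-in scaling and NDUFS8 alone under normexp. Spike-in scaling moves all probes of an array by the same amount, so that places relative to the all-probe median could hardly change there. Under normexp, 17 of the 26 falls remained below that median and the 23 rises remained above it. Over the settings that leave out a slide, the member counts ran from 16 to 20 higher and from 20 to 28 lower, and the median from -0.05 to -4.96e-05, the latter without slide 2. In these settings 48.7% to 58.4% of all tested probes were called. The replicate block gave 25 higher and 31 lower, a slide block 27 and 35. Of all tested probes, 66.2% and 70.5% were called with these blocks. Of named probes the slide block lost no call and gained those of UQCRC1 and COX7B2, given above, and of the second probes of ATP5ME (limma adjusted p = 0.013), NDUFA1 (0.0050), NDUFA9 (0.019), UQCR10 (0.0098) and COX4I1 (0.016), and the replicate block changed no call of a named probe other than those of NDUFA1, UQCR10, NDUFA9, UQCRC1 and COX7B2 given above. Without control replicate 2 there were 18 and 29, with 58.3% of all tested probes called.

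Among probes called as reported, reversed signs were those of CYC1 (0.00554), NDUFA5 (0.0244), UQCR10 (0.0145) and NDUFA1 (0.0206) under spike-in scaling. Under normexp they were those of NDUFA1 (0.0303) and NDUFC2 (-0.0648), and none of these passed the test there. NDUFB7 A_24_P14434, at 0.00 and not called as reported, was called at -0.17 without slide 1 and -0.16 without control replicate 2. Among named probes called in neither fit, the sign also differed for 11 under spike-in scaling and 10 under normexp. The cause of these changes was not tested. Of the 49 called members, 44 kept their sign and 8 their call in all 17 alternatives: the 4 SDHD probes and a probe each of SDHC, UQCR11, NDUFB5 and NDUFV3. Signal over background limits what can be said of COX4I2, COX7A1 and 1 probe of ATP5MC3.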
